A study of Mus musculus with 8 samples.

Results

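The transcripts described here are those of the interleukin-6 (IL-6) cytokine family and its receptors *Il6*, *Lif*, *Osm*, *Il6ra* and *Il6st*. They were chosen by gene symbol from the count table, with earlier results of these data known. They are 5 of the 24539 genes in the table, and all 5 were among the 11501 genes that held enough reads to be tested. They were measured by poly(A) RNA sequencing in bone marrow-derived macrophages (BMDMs), that is, macrophages grown in culture from mouse marrow. *Il6* passed the filter on low counts through its LPS-treated libraries and *Lif* through LPS-treated wild-type libraries, so neither was well sampled at baseline. The filter thus favoured a rise with LPS for *Il6*, and for *Lif* a level in treated wild-type libraries above the other groups.

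The 4 groups, of 2 libraries each, were untreated wild-type (WT-Ctrl), wild-type given lipopolysaccharide (WT-LPS), untreated *Tut7*-/- (KO-Ctrl) and *Tut7*-/- given lipopolysaccharide (KO-LPS). Lipopolysaccharide (LPS) is a bacterial cell wall component that activates Toll-like receptor 4 (TLR4), and it was given for 4 h. In all groups the marrow came from male C57BL/6 mice aged 7 weeks, was grown for 7 days with 20% L929 cell-conditioned medium, and the adherent cells were then kept overnight with 10 ng/ml macrophage colony-stimulating factor (M-CSF). *Tut7* encodes terminal uridyltransferase 7, an enzyme that adds uridines to the 3′ ends of RNAs, and the mice lacked it in every cell after CRISPR/Cas9 editing with guides in an early and a late intron of the gene. Whether libraries of 1 group were drawn from different mice or cultures is not stated in the labels, and every p-value therefore rests on a spread between libraries that may be technical.

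The libraries held 3767900 to 9394632 counts. *Tut7* (listed as *Zcchc6*) had 427 and 615 counts in WT-Ctrl and 1162 and 716 in WT-LPS, against 17 and 23 in KO-Ctrl and 18 and 19 in KO-LPS, as the genotype labels state. None of the 10 macrophage markers was at 0 in any group. A list of 12 fibroblast and marrow stroma markers summed to 91.6 to 99.2 CPM (counts-per-million units) in WT-Ctrl, 119 to 128 CPM in WT-LPS, 33.8 to 35.8 CPM in KO-Ctrl and 32.3 to 34.0 CPM in KO-LPS. Among the fibroblast and stroma markers, *Lum* and *Thy1* were at 0 in WT-Ctrl, *Thy1* in WT-LPS and *Lum* in both *Tut7*-/- groups. A list of 9 neutrophil markers summed to 1.32 to 1.54 CPM in WT-Ctrl and 0.870 to 2.29 CPM in WT-LPS. The sums were 1.06 to 1.47 CPM in KO-Ctrl and 2.69 to 3.84 CPM in KO-LPS. Of these markers *Ly6g*, *Mpo*, *Elane* and *Retnlg* were at 0 in all 8 libraries. *S100a8* and *S100a9* had counts in all 8, and *Camp*, *Ltf* and *Cxcr2* in some.

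IL-6, leukaemia inhibitory factor (LIF, from *Lif*) and oncostatin M (OSM, from *Osm*) are secreted cytokines that share the signalling receptor chain gp130, the product of *Il6st*. IL-6 first binds the IL-6 receptor chain encoded by *Il6ra* and then gp130, LIF uses gp130 together with LIFR, and OSM uses gp130 with OSMR and, in the mouse, to a lesser degree LIFR. Assembly of the receptor activates JAK kinases and the transcription factor STAT3, which in turn induces inhibitors such as SOCS3. In macrophages TLR4 activation is a classical inducer of *Il6*, whose messenger RNA (mRNA) is short-lived and is cut by the ribonuclease Regnase-1, encoded by *Zc3h12a*.

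The sequences upstream of the genes are shown because the ligand *Il6* and the receptor genes moved in opposite directions with LPS. The 250 bases before the annotated start were read from RefSeq on GRCm38.p6, which is the mm10 build, for 4 of the 5 genes, and *Osm* is named only. The stretches lie at chr5:30012864-30013113 on the plus strand for *Il6*, chr11:4257318-4257567 on the plus strand for *Lif*, chr3:89913197-89913446 on the minus strand for *Il6ra* and chr13:112463820-112464069 on the plus strand for *Il6st*. They are written 5′ to 3′, with capitals where a searched motif matched.
Il6: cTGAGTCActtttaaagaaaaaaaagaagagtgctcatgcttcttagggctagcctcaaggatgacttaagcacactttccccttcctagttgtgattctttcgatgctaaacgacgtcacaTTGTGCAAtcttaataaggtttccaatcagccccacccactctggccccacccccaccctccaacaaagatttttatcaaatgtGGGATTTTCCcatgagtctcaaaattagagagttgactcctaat
Lif: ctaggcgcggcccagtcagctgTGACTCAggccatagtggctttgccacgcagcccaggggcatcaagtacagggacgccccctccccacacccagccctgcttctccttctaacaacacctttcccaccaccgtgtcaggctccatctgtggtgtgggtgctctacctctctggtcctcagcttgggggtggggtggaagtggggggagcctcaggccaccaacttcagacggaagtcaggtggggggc
Il6ra: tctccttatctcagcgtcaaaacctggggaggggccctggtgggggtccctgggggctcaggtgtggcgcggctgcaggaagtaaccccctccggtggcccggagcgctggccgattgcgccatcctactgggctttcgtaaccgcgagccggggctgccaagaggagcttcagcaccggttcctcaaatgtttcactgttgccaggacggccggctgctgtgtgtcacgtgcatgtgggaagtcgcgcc
Il6st: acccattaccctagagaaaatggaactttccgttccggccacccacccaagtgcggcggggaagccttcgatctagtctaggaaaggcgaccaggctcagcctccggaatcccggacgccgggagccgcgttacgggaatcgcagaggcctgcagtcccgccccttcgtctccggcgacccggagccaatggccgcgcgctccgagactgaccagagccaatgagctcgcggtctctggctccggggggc

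Motifs were searched on both strands, namely NF-kB (GGGA, any base, TT, any base, CC), C/EBP (TTGNGCAA), AP-1 (TGANTCA), STAT (TTCNNNGAA) and the TATA box (TATAAA). The *Il6* stretch held an AP-1 match 249 to 243 bases before the start, a C/EBP match 128 to 121 bases before it and an NF-kB match 44 to 35 bases before it. The *Lif* stretch held an AP-1 match at 228 to 222 bases, and those of *Il6ra* and *Il6st* held none of the 5 motifs. Of 32851 RefSeq promoters of the same length, 0.98% held the NF-kB letters, 2.61% the C/EBP letters, 6.75% the AP-1 letters, 7.02% the STAT letters and 12.4% the TATA letters. Matches do not overlap each other, and a match is a description of letters and not of a bound site. The *Il6* stretch had 42.8% G or C and 3 CpG dinucleotides, against 65.2% and 18 for *Il6ra*, 66.0% and 26 for *Il6st* and 63.6% and 6 for *Lif*. Across all promoters the medians were 52.4% and 6.0.

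The first comparison asked how LPS changed the family in wild-type BMDMs. After 4 h of LPS *Il6* went from nearly absent to 1006 ± 37.2 CPM (SD, n = 2), *Lif* was higher at very low levels, and both receptor transcripts were lower, by more than the gap between the libraries of any group. *Osm* was called higher as well, but its direction turned when libraries were scaled by their totals alone. CPM here were scaled by the trimmed mean of M-values (TMM). Calls were made with edgeR's quasi-likelihood test, where the Benjamini-Hochberg adjusted p over all 11501 genes had to be under 0.05. Thus 3 members were higher and 2 lower, where 27% of all genes tested were called higher and 30.4% lower. The median log2 fold change of the 5 genes was 0.75, and that of all genes tested -0.17. With library totals as the only scaling, 2 members were higher and 2 lower, and 21% of all calls were higher in place of 47.1%, as the median of all genes moved to -1.0.

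*Il6* lies at chr5:30013114-30019975. It had 0 and 2 counts in WT-Ctrl and 4744 and 2989 in WT-LPS, which are 0 and 0.175 CPM against 1032 and 979 CPM. In *Tut7*-/- BMDMs it had 0 counts in both untreated libraries and 1914 and 1753 counts, 303 and 241 CPM, with LPS. Treated and untreated libraries did not overlap in either genotype. The ratio of CPM in wild-type was 10361, with a 95% counting interval of 2867 to 85567 because it rests on 2 untreated counts. In *Tut7*-/- BMDMs the ratio was at least 1745-fold higher, set against a floor of 3 counts over the untreated group. These intervals and floors cover counting error only. Both rises were called by edgeR (adjusted p = 1.7e-11 in wild-type and 4.8e-11 in *Tut7*-/-).

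*Lif*, at chr11:4257568-4272514, stayed rare in these macrophages. It had 2 and 4 counts (0.220 and 0.351 CPM) in WT-Ctrl, 11 and 7 counts (2.39 and 2.29 CPM) in WT-LPS, 1 and 0 counts (0.123 and 0 CPM) in KO-Ctrl and 4 and 7 counts (0.633 and 0.961 CPM) in KO-LPS. Treated libraries exceeded untreated ones of the same genotype in each case, with few reads behind every value. The ratio with LPS was 8.04 in wild-type (95% counting interval 3.06 to 24.7) and 15.7 in *Tut7*-/- BMDMs (2.28 to 676). Both were called by edgeR (adjusted p = 0.0033 and 0.010), and the call in *Tut7*-/- was lost without KO-Ctrl library 2 (adjusted p = 0.10) or KO-LPS library 2 (0.079).

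*Osm*, which lies upstream of *Lif* on the same chromosome at chr11:4236785-4241026 without overlapping it, changed least of the ligands. It was at 8.25 and 6.93 CPM in WT-Ctrl and 13.3 and 12.1 CPM in WT-LPS, and at 7.62 and 7.17 CPM in KO-Ctrl and 6.01 and 7.00 CPM in KO-LPS. The WT-LPS libraries were thus above all 6 others, while the treated *Tut7*-/- libraries were just below the untreated ones. The wild-type difference was 0.75 on the log2 scale (standard error 0.29, 95% interval 0.13 to 1.37, adjusted p = 0.039 by edgeR), but it turned to -0.085 when libraries were scaled by their totals alone. On the deposited RPKM scale (reads per kilobase of transcript, relative to library depth), which has no TMM factor, *Osm* was at 5.78 and 5.20 in WT-Ctrl and 5.33 and 5.08 in WT-LPS, and these ranges overlap. The call was also lost without WT-Ctrl library 1 (adjusted p = 0.064) or 2 (0.17), WT-LPS library 1 (0.18) or 2 (0.087) or KO-LPS library 1 or 2 (0.061 for each).

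**Figure D1:**
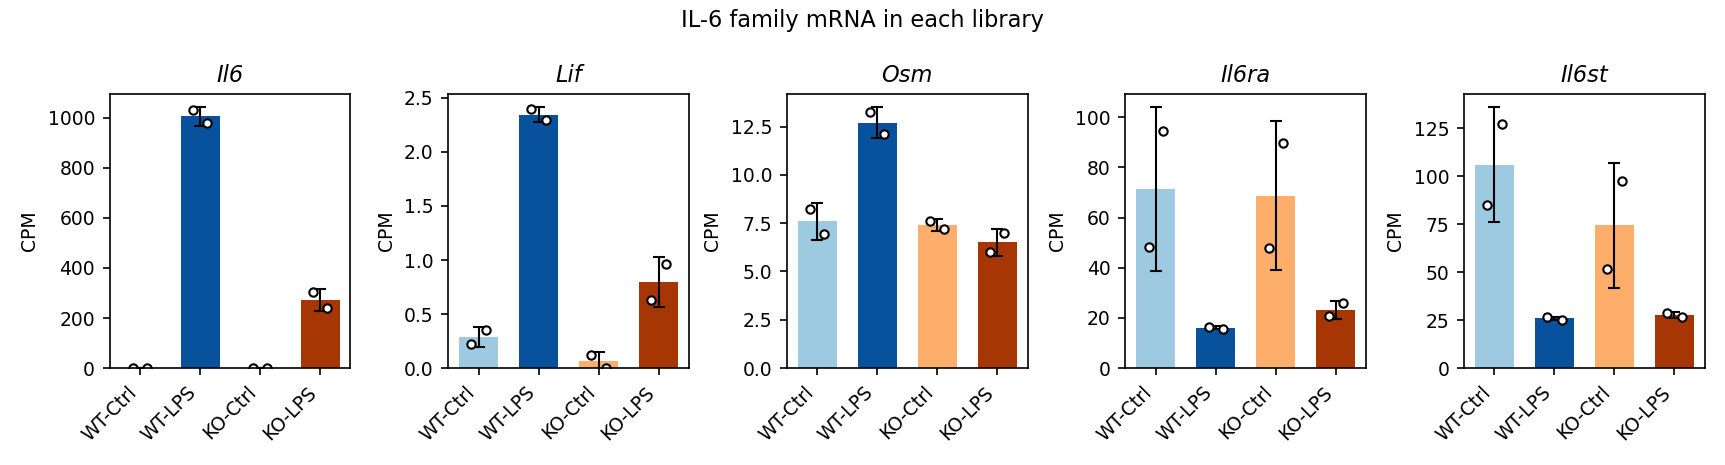
CPM (TMM-scaled, vertical axes start at 0 and differ between panels) of the 5 genes in the 4 groups, with bars for the mean, lines for the SD and circles for the 2 libraries. *Il6* is seen only with LPS, at 1006 CPM in WT-LPS and 272 CPM in KO-LPS, and the receptor genes *Il6ra* and *Il6st* are lower with LPS and spread widely between untreated libraries.

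The receptor chain genes moved the other way. *Il6ra* (chr3:89869324-89913196), whose protein binds IL-6, was at 48.3 and 94.5 CPM in WT-Ctrl and at 16.5 and 15.7 CPM in WT-LPS. In *Tut7*-/- BMDMs it was at 47.7 and 89.7 CPM untreated and at 20.7 and 25.8 CPM with LPS. Every treated library was below every untreated one. The log2 fold change was -2.14 in wild-type (standard error 0.36, adjusted p = 0.00012, edgeR) and -1.56 in *Tut7*-/- BMDMs (standard error 0.34, adjusted p = 0.00077), which are 4.42-fold and 2.95-fold lower levels.

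*Il6st* (chr13:112464070-112506860), the gene of the shared chain gp130, was at 85.0 and 127 CPM in WT-Ctrl and 26.5 and 25.2 CPM in WT-LPS. In *Tut7*-/- BMDMs it was at 51.5 and 97.4 CPM untreated and at 28.9 and 26.6 CPM with LPS, again with no overlap between treated and untreated libraries. The log2 fold change was -2.03 in wild-type (standard error 0.30, adjusted p = 3.7e-05, edgeR) and -1.43 in *Tut7*-/- BMDMs (standard error 0.29, adjusted p = 0.0005). In these bulk samples, fewer cells that carry a transcript and less of it per cell cannot be told apart. Both receptor genes kept their calls in both genotypes in all alternatives run, 18 in wild-type and 19 in *Tut7*-/-.

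The untreated libraries of 1 group differed from each other in both receptor genes. *Il6ra* was 1.96-fold higher in WT-Ctrl library 2 than in library 1, a gap that 2.96% of genes tested exceeded, and 1.88-fold higher in KO-Ctrl library 2. *Il6st* was 1.498-fold and 1.89-fold higher in the same libraries. With LPS the gaps were between 1.05-fold and 1.25-fold for these genes. Long transcripts as a class moved in the same way: library 2 exceeded library 1 by a median log2 difference of 0.20 in WT-Ctrl and 0.56 in KO-Ctrl for genes of 4342 bases or more, and was lower by -0.36 and -0.43 for genes of 1839 bases or less. The transcript lengths implied by the ratio of counts to RPKM were 3465 bases for *Il6ra* and 5599 for *Il6st*, against 1100 for *Il6*, 1959 for *Osm* and 4120 for *Lif*. The part of transcript length in the receptor values was not tested beyond a length correction, under which *Il6ra* and *Il6st* stayed lower with LPS in both genotypes.

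Levels of different genes can be set side by side only per length, in RPKM. In WT-Ctrl the order was *Il6ra* at 29.6 ± 14.8 RPKM, *Il6st* at 27.1 ± 8.93, *Osm* at 5.49 ± 0.41, *Il6* at 0.116 ± 0.164 and *Lif* at 0.0992 ± 0.0367 (SD, n = 2). The neighbours *Il6ra* and *Il6st*, and *Il6* and *Lif*, did not differ beyond their spread. In WT-LPS *Il6* led at 726 ± 6.00 RPKM, followed by *Osm* at 5.21 ± 0.183, *Il6ra* at 3.74 ± 0.0245, *Il6st* at 3.71 ± 0.0261 and *Lif* at 0.457 ± 0.000557. The ranges of *Il6ra* (3.72 to 3.76 RPKM) and *Il6st* (3.70 to 3.73 RPKM) overlapped. In KO-Ctrl the order was *Il6ra* (22.6 ± 12.1 RPKM), *Il6st* (15.2 ± 8.18), *Osm* (4.19 ± 0.313), *Lif* (0.0152 ± 0.0215) and *Il6*, listed at 0. In KO-LPS it was *Il6* (189 ± 33.1 RPKM), *Il6ra* (5.18 ± 0.731), *Il6st* (3.84 ± 0.279), *Osm* (2.57 ± 0.241) and *Lif* (0.149 ± 0.0414). The RPKM of *Il6ra* over that of *Il6st* was 0.919 and 1.20 in WT-Ctrl, 1.01 and 1.01 in WT-LPS, 1.496 and 1.49 in KO-Ctrl and 1.16 and 1.57 in KO-LPS.

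LPS in *Tut7*-/- BMDMs called 2 members higher, *Il6* and *Lif*, and 2 lower, *Il6ra* and *Il6st*, where 34.8% of genes tested were called higher and 33.2% lower. *Osm* was not called, at a log2 fold change of -0.18 (95% interval -0.81 to 0.45, adjusted p = 0.60 by edgeR). It was called lower when libraries were scaled by their totals alone (-0.74, adjusted p = 0.029) and with limma on log2(RPKM + 1) (-0.54, 0.030) or log2(RPKM + 0.1) (-0.69, 0.033). The median of the 5 genes was -0.18 and that of all genes -0.070.

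The next comparison, *Tut7*-/- against wild-type BMDMs with LPS, is the one that bears on the study's question of whether TUT7 controls the TLR4-driven cytokine response. *Il6* was lower in *Tut7*-/- BMDMs and was the only 1 of the 5 genes called, with none higher, where 0.774% of genes tested were called lower and 0.626% higher. Its 1032 and 979 CPM in WT-LPS stood against 303 and 241 CPM in KO-LPS. The log2 fold change was -1.89 (standard error 0.24, 95% interval -2.40 to -1.37, adjusted p = 0.0012 by edgeR), a 3.70-fold lower level. The call held in 16 of 18 alternatives (range -2.10 to -1.75) and was lost without KO-LPS library 2 (-1.75, adjusted p = 0.076). With 2 libraries on each side, exact permutation could reach no p lower than 0.33.

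The summed fibroblast and stroma markers moved with *Il6* in this comparison, at 119 to 128 CPM in WT-LPS and 32.3 to 34.0 CPM in KO-LPS, and 4 of the 9 that could be tested were called lower (*Col1a1*, *Col1a2*, *Acta2* and *Sparc*). Their part in the *Il6* difference was not tested. The summed markers were also lower in KO-Ctrl than in WT-Ctrl. The summed dendritic cell markers were at 20.97 to 24.6 CPM in WT-LPS and 14.8 to 16.5 CPM in KO-LPS, of which *Xcr1* alone made up 18.9 and 17.7 CPM and 14.7 and 12.4 CPM. *Siglech* was at 0 in all 4 of these libraries, *Cd209a* in WT-LPS and *Flt3* in KO-LPS. The part of these markers was likewise not tested.

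The other ligands were also at lower values in KO-LPS, without being called. *Osm* stood at 13.3 and 12.1 CPM in WT-LPS against 6.01 and 7.00 CPM in KO-LPS, with no overlap, and differed by -0.96 on the log2 scale (standard error 0.30, 95% interval -1.61 to -0.32, adjusted p = 0.16 over all genes by edgeR). It passed in 4 of 18 alternatives, among them without KO-Ctrl library 1 (adjusted p = 0.044) and without both untreated libraries numbered 1 (0.0083). *Lif* stood at 2.39 and 2.29 CPM against 0.633 and 0.961 CPM and differed by -1.53 (standard error 0.68, 95% interval -2.96 to -0.088, adjusted p = 0.35), on 18 counts against 11. *Lif* passed the filter on low counts through the WT-LPS libraries only, so the filter favoured a lower value in KO-LPS. *Il6ra* stood at 16.5 and 15.7 CPM in WT-LPS against 20.7 and 25.8 CPM in KO-LPS, also without overlap, and was not called (log2 difference 0.53, 95% interval -0.25 to 1.30, adjusted p = 0.60). The treated libraries of *Il6st* overlapped between genotypes, with a log2 difference of 0.10 (-0.55 to 0.75, adjusted p = 0.93). The median of the 5 genes was -0.96 and that of all genes 0.10.

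**Figure D2:**
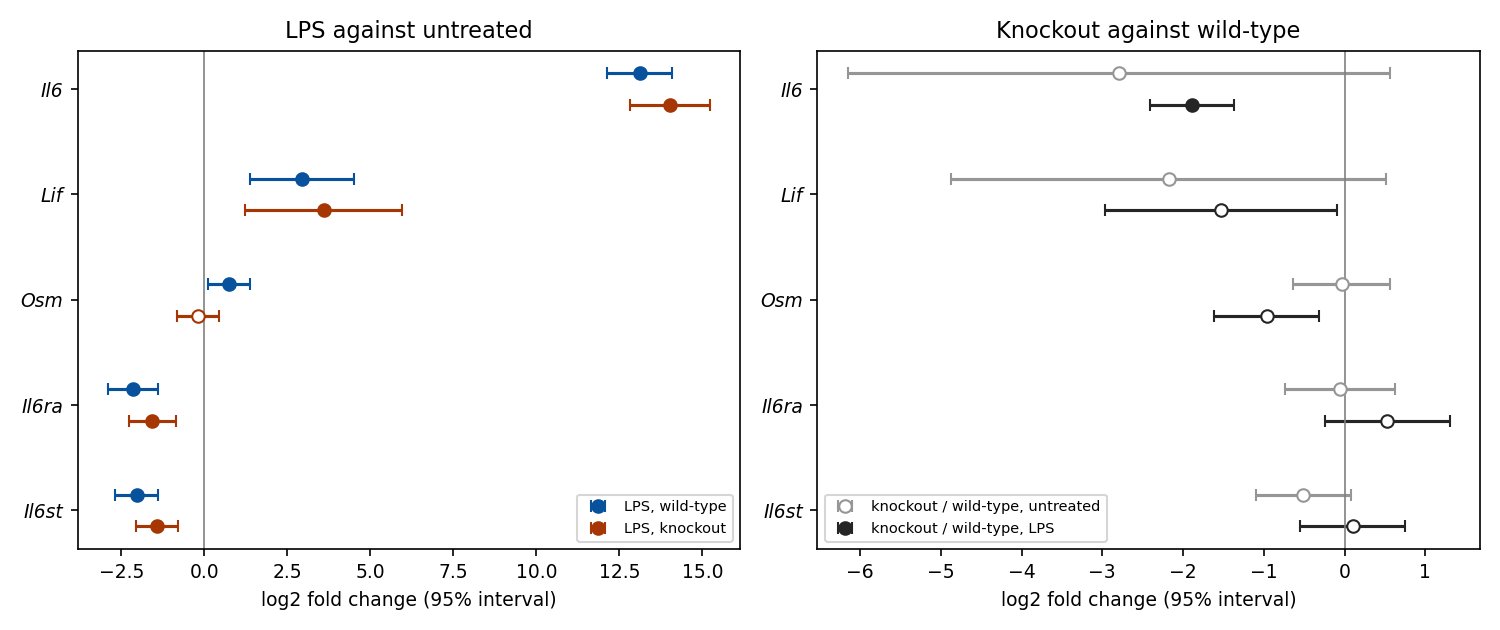
Log2 fold changes of the 5 genes from edgeR's quasi-likelihood model (horizontal axes, points, with lines for 95% intervals), for LPS against untreated in each genotype at left and for *Tut7*-/- against wild-type at right, filled where the adjusted p was under 0.05. At right *Il6* with LPS, at -1.89, is the only filled point, and the *Il6* points at left rest on 0 to 2 untreated counts and are no measure of size.

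Untreated *Tut7*-/- and wild-type BMDMs were compared next. None of the 5 genes was called, higher or lower, where 14.8% of genes tested were called higher and 22.2% lower. No member had an unadjusted p under 0.05. *Osm*, the best sampled ligand at baseline, was at 8.25 and 6.93 CPM against 7.62 and 7.17 CPM, a log2 difference of -0.035 (95% interval -0.64 to 0.57). *Il6ra* differed by -0.055 (-0.73 to 0.62) and *Il6st* by -0.51 (-1.10 to 0.084, adjusted p = 0.15 by edgeR). *Il6st* was called lower without KO-Ctrl library 2 (-1.04, adjusted p = 0.00058) and without both untreated libraries numbered 1 (-0.41, adjusted p = 0.049), and its difference was -0.016 (adjusted p = 0.95) with the length correction. *Il6* and *Lif* had at most 4 counts in any untreated library, so a difference was not detectable at this depth. The median of the 5 genes was -0.51 and that of all genes 0.0055.

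Whether the LPS response itself differed between genotypes was tested as the difference of the log2 fold changes. None of the 5 genes was called, where 4.06% of genes tested were called higher in *Tut7*-/- and 0.435% lower. *Osm* alone had an unadjusted p under 0.05 (0.041), with a difference of -0.93 (95% interval -1.81 to -0.045, adjusted p = 0.19 by edgeR). For *Il6ra* the difference was 0.58 (-0.45 to 1.61) and for *Il6st* 0.61 (-0.27 to 1.49), and without KO-Ctrl library 2 both were called, at 1.12 (adjusted p = 0.024) and 1.15 (0.0071). The difference for *Il6* cannot be read, because the untreated levels hold 2 counts in wild-type and none in *Tut7*-/- BMDMs. The median of the 5 genes was 0.61 and that of all genes 0.15.

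The 3′ untranslated regions (UTRs) of the ligand mRNAs hold AU-rich elements, which recruit decay proteins such as tristetraprolin. Short sites are shown because the study concerns decay of mRNA through its 3′ end. In the study's reporter assays, mutating any single AU-rich element of the *Il6* 3′ UTR did not remove the effect of TUT7. The paper places that effect at a stem-loop of this UTR, which is not among the sites shown. The letters UAUUUAU were searched in the 3′ UTRs of GENCODE M21 on GRCm38. The first site of each ligand, with 10 bases on either side and the searched letters in capitals, reads as follows.
Il6: uuaugauugaUAUUUAUuauuuuuaug
Lif: cacagcugucUAUUUAUuacuaugucc
Osm: caagacacuuUAUUUAUccgaauguca
They lie at UTR bases 181 to 207 of *Il6*, 1136 to 1162 of *Lif* and 577 to 603 of *Osm*. The *Il6* UTR of 427 bases held 1 match, the *Lif* UTR of 3180 bases held 5 and the *Osm* UTR of 1017 bases held 3. *Il6ra* and *Il6st* held none in 7102 and 5641 bases. Among 3′ UTRs at least as long, 10.4%, 53.4% and 23.0% held the letters within the same length as *Il6*, *Lif* and *Osm*, and 80.6% and 71.8% within that of *Il6ra* and *Il6st*. The *Il6ra* UTR in this annotation is longer than the whole transcript length implied by the deposited values, so the counted and the searched transcript models differ.

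Other genes of the gp130 family were taken from a list of 8 ligand and 5 receptor genes. Of the 8 ligand genes 3 could be tested, and all 3 rose with LPS in both genotypes. Of all genes tested, 27% were called higher with LPS in wild-type and 34.8% in *Tut7*-/- BMDMs. *Il27* and *Clcf1* passed the filter on low counts through LPS-treated libraries, so the filter favoured a rise for both. *Il27*, which encodes the p28 subunit of interleukin-27, went from 0 and 0.789 CPM in WT-Ctrl to 460 and 472 CPM in WT-LPS and from 0.123 and 0.531 CPM in KO-Ctrl to 307 and 303 CPM in KO-LPS. The ratio was 1058 in wild-type (95% counting interval 557 to 2316) and 845 in *Tut7*-/- BMDMs (410 to 2103). Between genotypes with LPS, *Il27* differed by -0.61 on the log2 scale (95% interval -1.24 to 0.018, adjusted p = 0.41 by edgeR).

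*Ebi3*, the partner subunit of p28, was at 57.6 and 53.5 CPM in WT-Ctrl and 309 and 311 CPM in WT-LPS, and at 95.3 and 77.3 CPM in KO-Ctrl and 325 and 382 CPM in KO-LPS. It rose by 2.48 and 2.03 on the log2 scale and was higher in untreated *Tut7*-/- than wild-type BMDMs (0.64, adjusted p = 0.027 by edgeR), a call kept in 7 of 18 alternatives and lost without any library other than KO-Ctrl library 2. *Clcf1*, a ligand of the ciliary neurotrophic factor receptor, was at 12.8 and 18.0 CPM in WT-LPS and 6.33 and 5.63 CPM in KO-LPS, without overlap. Its log2 difference was -1.35 (standard error 0.35, adjusted p = 0.071 by edgeR). With DESeq2 size factors 1 of these 3 ligand genes was called lower in KO-LPS, where 138 of 11501 genes tested were. The length correction also gave 1, where 298 of 11501 were called lower. *Cntf*, *Ctf1*, *Ctf2* and *Il11* were too low to be tested, with at most 3 counts in any library.

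Of the 5 receptor genes 4 were tested, and *Cntfr* had 0 counts throughout. *Lifr*, the partner of gp130 for LIF, was at 29.1 and 27.9 CPM in WT-Ctrl and 5.90 and 11.96 CPM in KO-Ctrl, and at 1.96 and 2.29 CPM in WT-LPS and 2.37 and 2.75 CPM in KO-LPS. It fell with LPS by 3.75 on the log2 scale in wild-type and by 1.81 in *Tut7*-/- BMDMs. The difference between these responses, 1.94, was not called (adjusted p = 0.068 by edgeR). Untreated, *Lifr* was lower in *Tut7*-/- BMDMs (-1.65, standard error 0.31, adjusted p = 0.0016 by edgeR), a call kept in all 18 alternatives. *Il11ra1*, the interleukin-11 receptor gene, was at 20.8 and 12.2 CPM in WT-Ctrl and 44.7 and 30.5 CPM in KO-Ctrl and was higher in *Tut7*-/- BMDMs (1.19, adjusted p = 0.0081, or 0.094 without WT-Ctrl library 2). It fell with LPS in both genotypes, to 5.66 and 7.54 CPM and to 8.70 and 11.3 CPM, although the wild-type call was lost without WT-Ctrl library 1 (adjusted p = 0.067) or WT-LPS library 1 (0.075).

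*Osmr*, the main OSM receptor chain, rose with LPS, unlike *Lifr* and *Il11ra1*. It had 0 and 2 counts in WT-Ctrl, 14 and 10 in WT-LPS, 1 and 0 in KO-Ctrl and 20 and 20 in KO-LPS. *Osmr* too passed the filter through LPS-treated libraries, so the filter favoured a rise. The ratio with LPS was 32.2 (95% counting interval 7.98 to 281) in wild-type and 57.1 (9.68 to 2311) in *Tut7*-/- BMDMs, and both were called higher. *Il27ra* was at 1.54 and 2.10 CPM in WT-Ctrl, 3.26 and 0.655 CPM in WT-LPS, 3.32 and 2.75 CPM in KO-Ctrl and 1.27 and 1.10 CPM in KO-LPS. It was called lower with LPS in *Tut7*-/- BMDMs (-1.34, adjusted p = 0.041, lost without any of 5 libraries with values of 0.058 to 0.16) and was not called in wild-type (0.22, adjusted p = 0.76), and the difference between these responses was not called (adjusted p = 0.25).

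**Figure D3:**
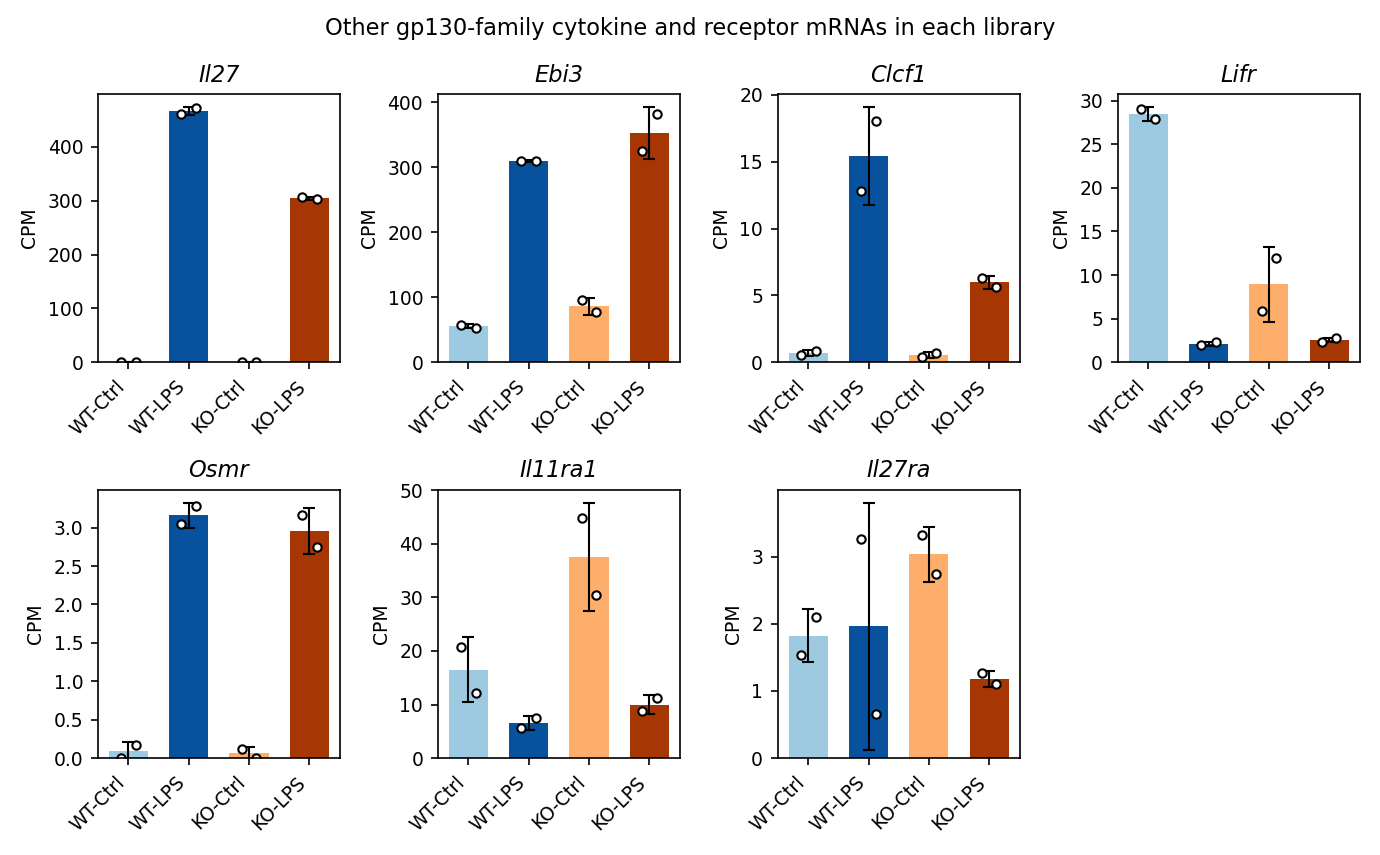
CPM (TMM-scaled, vertical axes start at 0 and differ between panels) of the 7 other gp130-family genes that could be tested, with bars for the mean, lines for the SD and circles for the 2 libraries of each group. *Il27*, *Ebi3*, *Clcf1* and *Osmr* are higher and *Lifr* and *Il11ra1* lower with LPS in both genotypes.

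Downstream of gp130, 8 genes of kinases, the phosphatase SHP2 and STAT factors were listed. All 8 rose with LPS in both genotypes, where 27% and 34.8% of all genes tested were called higher. When libraries were scaled by their totals alone 7 and 6 of them rose, where 1755 and 2853 of 11501 genes did. The median log2 fold change of the 8 was 2.34 in wild-type and 2.68 in *Tut7*-/- BMDMs. The largest changes in wild-type were those of *Jak2* (6.13) and *Stat5a* (3.91), and *Stat3*, the main factor of IL-6 signals, rose by 2.83. None of the 8 was called between genotypes with LPS, where 0.774% of all genes tested were called lower and 0.626% higher, and the median was 0.13. Without both untreated libraries numbered 1, 3 of them were called lower, where 1023 of 11759 genes tested were, and with the length correction 1 was. With that correction 298 of 11501 genes tested were called lower. Untreated, *Jak1* (-0.76) and *Jak2* (-1.64) were lower in *Tut7*-/- BMDMs, where 14.8% of all genes tested were called higher and 22.2% lower. The *Jak1* call was lost with the length correction (-0.28, adjusted p = 0.14 by edgeR). It was also lost without WT-Ctrl library 1 (-0.80), WT-Ctrl library 2 (-0.71) or KO-Ctrl library 1 (-0.46). *Jak2* went from 19.9 and 17.8 CPM to 1407 and 1226 CPM in wild-type and from 5.65 and 6.38 CPM to 1191 and 946 CPM in *Tut7*-/- BMDMs, and its response was higher there by 1.34 (adjusted p = 0.031 by edgeR, passing in 10 of 17 alternatives and lost without any WT-Ctrl, WT-LPS or KO-LPS library, with values of 0.054 to 0.25). With the length correction 5 of the 8 genes were called higher and 1 lower in untreated *Tut7*-/- BMDMs, where 2914 and 2377 of 11501 genes tested were.

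Of 8 inhibitors of the pathway, 7 rose and 1, *Pias3* (-1.53), fell with LPS in wild-type BMDMs. In *Tut7*-/- BMDMs 7 rose and 1 fell. *Cish* and *Socs2* passed the filter on low counts through LPS-treated libraries, so the filter favoured a rise for both. Of all genes tested, 27% were called higher and 30.4% lower in wild-type, and 34.8% and 33.2% in *Tut7*-/- BMDMs. When libraries were scaled by their totals alone, 5 inhibitors rose and 1 fell in wild-type, and 6 and 1 in *Tut7*-/- BMDMs. That scaling called 1755 of 11501 genes higher and 6595 lower in wild-type, and 2853 and 5377 in *Tut7*-/- BMDMs. *Socs3*, whose protein binds gp130 and blocks it, was at 6.71 and 6.40 CPM in WT-Ctrl and 2203 and 2188 CPM in WT-LPS, and at 6.76 and 3.90 CPM in KO-Ctrl and 2533 and 2751 CPM in KO-LPS. *Socs1* (8.16) and *Cish* (5.54) had the next largest log2 changes after *Socs3* (8.39) in wild-type. *Cish*, a SOCS-family gene induced by STAT5, was the only inhibitor called between genotypes with LPS. It was at 37.2 and 32.4 CPM in WT-LPS and 11.1 and 11.1 CPM in KO-LPS, a log2 difference of -1.65 with a standard error of 0.27 (adjusted p = 0.0074 by edgeR), kept in 13 of 18 alternatives and lost without any WT-LPS or KO-LPS library (adjusted p = 0.065 to 0.17). Untreated, *Ptpn1* (0.62) was higher and *Pias1* (-0.91) and *Ptpn2* (-1.37) were lower in *Tut7*-/- BMDMs. Of all genes tested, 14.8% were called higher there and 22.2% lower. The *Ptpn1* call was kept in 7 of 18 alternatives, over which its difference went down to 0.24 and its adjusted p up to 0.33, and it was lost without any library other than WT-Ctrl library 2 or KO-Ctrl library 2.

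Soluble IL-6 receptor is released from the cell surface by the proteases ADAM10 and ADAM17. *Adam17* rose with LPS in wild-type (1.33) and in *Tut7*-/- (2.57) BMDMs, and *Adam10* was called in *Tut7*-/- only (1.17, against 0.24 in wild-type, adjusted p = 0.39). When libraries were scaled by their totals alone, neither was called in wild-type, where the median of the pair was -0.048. In *Tut7*-/- BMDMs 1 of them was then called higher, where 2853 of 11501 genes tested were. The difference between these responses had an adjusted p of 0.075 for *Adam17* and 0.11 for *Adam10* by edgeR. Untreated, both were lower in *Tut7*-/- BMDMs, *Adam10* by -1.07 and *Adam17* by -1.53, where 22.2% of all genes tested were called lower. Neither was called between genotypes with LPS.

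Of 14 genes known as STAT3 targets, 10 rose and 1 fell with LPS in wild-type BMDMs and 11 rose in *Tut7*-/- BMDMs, with medians of 2.54 and 2.19. Of all genes tested, 27% and 34.8% were called higher in these genotypes, and 30.4% and 33.2% lower. With library totals as the only scaling, 9 and 11 of the 14 were called higher and 2 lower in each genotype. Among 11501 genes tested, 1755 and 2853 were called higher under that scaling, and 6595 and 5377 lower. The anti-inflammatory cytokine gene *Il10* (5.68), the kinase gene *Pim1* (4.64) and the protease inhibitor gene *Timp1* (3.76) changed most in wild-type, and *Vegfa* (-1.19) fell. With LPS, *Il4ra*, the interleukin-4 receptor gene, was the only 1 called between genotypes, at 777 and 718 CPM in WT-LPS and 1467 and 1700 CPM in KO-LPS (1.08, adjusted p = 0.022 by edgeR). Its call was kept in 14 of 18 alternatives and lost without any WT-LPS or KO-LPS library (adjusted p = 0.16 to 0.45). The median of the list was 0.027 in that comparison. With the length correction 2 of the 14 were called higher and 2 lower there, where 172 and 298 of 11501 genes tested were. Untreated, *Junb* (0.85), *Il4ra* (0.68) and *Ccnd1* (0.68) were higher and *Mcl1* (-0.82), *Hif1a* (-1.75) and *Vegfa* (-1.68) lower in *Tut7*-/- BMDMs. That is 3 of the 14 genes in each direction, where 14.8% of all genes tested were called higher and 22.2% lower. The untreated calls of *Il4ra* and *Ccnd1* were kept in 7 and 8 of 18 alternatives and lost when libraries were scaled by their totals alone (0.36, adjusted p = 0.18, and 0.37, adjusted p = 0.23). Both calls were also lost without WT-Ctrl library 1 or any WT-LPS or KO-LPS library, and that of *Il4ra* without KO-Ctrl library 1 (adjusted p = 0.058 to 0.15 over these). In the fit of only the 4 untreated libraries *Junb* (adjusted p = 0.055) and *Mcl1* (0.068) did not pass either. The LPS response was higher in *Tut7*-/- for *Timp1* (1.78, adjusted p = 0.033) and lower for *Junb* (-1.12, adjusted p = 0.048), with 10 and 9 of 17 alternatives passing and both calls lost without any WT-Ctrl, WT-LPS or KO-LPS library.

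**Figure D4:**
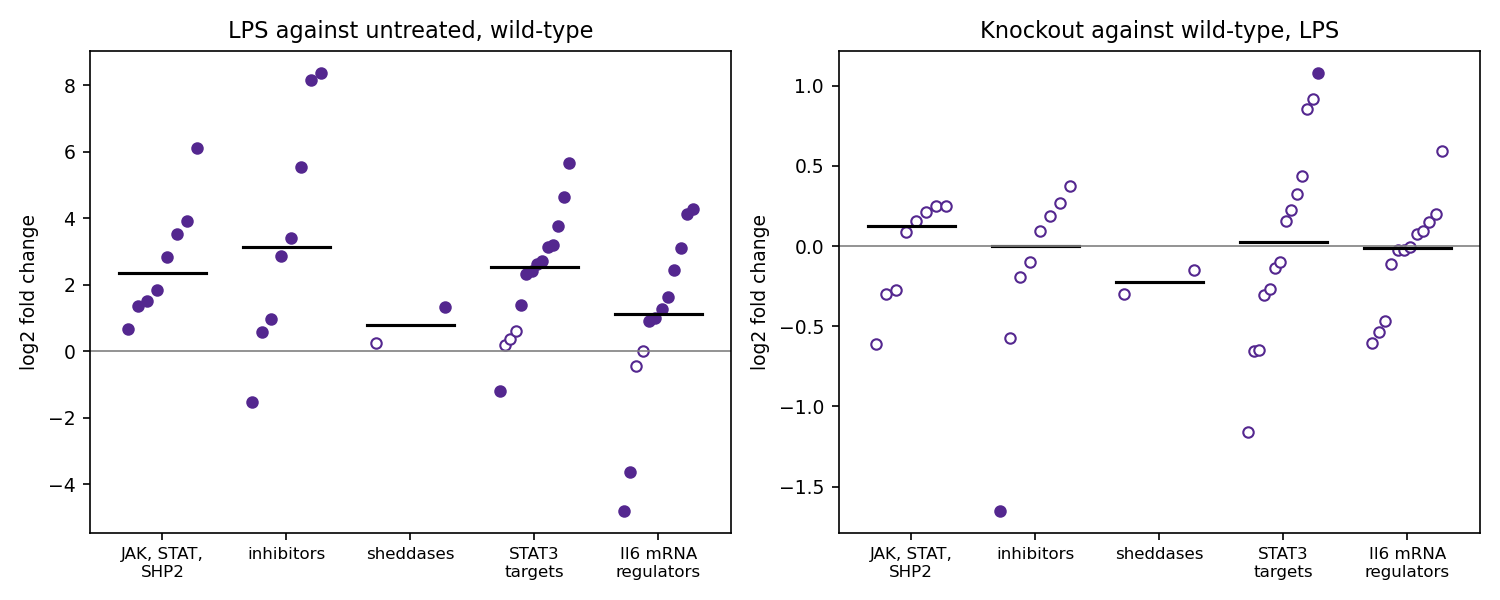
Log2 fold changes (vertical axes, which differ between panels) of the genes of 5 pathway lists, with 1 circle per gene, filled where the adjusted p was under 0.05, and lines for the list medians. With LPS in wild-type BMDMs, at left, most genes are higher, and between genotypes with LPS, at right, *Cish* (-1.65) and *Il4ra* (1.08) are the only filled circles.

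The last list held 12 genes of proteins that bind or cut *Il6* mRNA or help to do so. With LPS 8 rose and 2 fell in wild-type and 8 rose and 3 fell in *Tut7*-/- BMDMs. Of all genes tested, 27% were called higher and 30.4% lower in wild-type, and 34.8% and 33.2% in *Tut7*-/- BMDMs. With library totals as the only scaling, 5 of the 12 were higher and 4 lower in wild-type, and 8 and 4 in *Tut7*-/- BMDMs. Of 11501 genes tested, 1755 were then called higher and 6595 lower in wild-type, and 2853 and 5377 in *Tut7*-/- BMDMs. The wild-type median of the list went from 1.13 to 0.30 under that scaling. The decay factor gene *Zfp36l1* (-4.80), the Regnase family gene *Zc3h12c* (4.28) and *Arid5a* (4.13), whose protein stabilises *Il6* mRNA, changed most in wild-type. *Zc3h12a*, at chr4:125118414-125127881, encodes Regnase-1, and its mRNA is the one that the study's title links to TUT7. It was at 24.0 and 31.5 CPM in WT-Ctrl, 248 and 227 CPM in WT-LPS, 32.1 and 38.8 CPM in KO-Ctrl and 232 and 296 CPM in KO-LPS. The treated libraries of the 2 genotypes overlapped, and the log2 difference was 0.15 (standard error 0.22, 95% interval -0.31 to 0.61, adjusted p = 0.83 by edgeR). None of the 12 genes was called between genotypes with LPS, where 0.774% of all genes tested were called lower and 0.626% higher. Without both untreated libraries numbered 1 some of the 12 were called lower, in a fit that also called more of all genes. The list median was then -0.106 and that of all genes 0.0113. Untreated, *Zc3h12c* (-1.38), *Rc3h1* (-1.75), *Rc3h2* (-1.77) and *Hnrnpd* (-0.86) were lower in *Tut7*-/- BMDMs. Of all genes tested, 14.8% were called higher there and 22.2% lower. With the length correction 3 of the 12 genes were called higher and 3 lower, where 2914 and 2377 of 11501 genes tested were. The *Hnrnpd* call ended under that correction (-0.27, adjusted p = 0.22) and without WT-Ctrl library 1 (0.085), WT-Ctrl library 2 (0.071) or KO-Ctrl library 1 (0.088), and the *Zc3h12c* call without WT-Ctrl library 2 (0.10) or KO-Ctrl library 1 (0.056).

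Over the 8 libraries the genes most like each member were sought among genes of at least 10 CPM in 1 group, by Pearson correlation of log2 CPM, as a description over libraries of 4 groups. For *Il6* they were *Shisa3* (r = 0.9996), *Vgf* (0.999) and *Snn* (0.9989). *Shisa3* had mean levels of 0.0438, 237, 0 and 92.1 CPM in WT-Ctrl, WT-LPS, KO-Ctrl and KO-LPS, high with LPS and lower in *Tut7*-/- BMDMs as *Il6* was. For *Lif* they were *Axl* (0.991), *Errfi1* (0.9737) and *Col4a2* (0.9718), and for *Osm* *Cd74* (0.9588), *Pdgfb* (0.9409) and *Pilrb1* (0.9235). *Il6ra* was most like *Nisch* and *Asxl1* (both 0.9918) and *Dip2a* (0.9873), and *Il6st* most like *Cep250* (0.9919), *Setdb1* (0.9903) and *Gpr137b* (0.9896). Between members, r was 0.958 for *Il6ra* and *Il6st*, 0.915 for *Il6* and *Lif*, 0.469 for *Il6* and *Osm* and -0.924 for *Il6* and *Il6ra*.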

How the data were processed

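Poly(A) RNA of 8 BMDM libraries was sequenced. Using FANSe3, whose version and strand setting are not given in the sources used here, the authors aligned reads to RefSeq transcripts (mm10) and deposited whole-number read counts per gene symbol, and the deposited RPKM values divide those counts by length and depth. Both mm10 and edgeR are listed in the submitters' processing notes.

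Analysis of the counts used edgeR 4.0.16 under R 4.3.3. The filter filterByExpr left 11501 of 24539 genes, TMM gave the scaling, and glmQLFit in its robust form was run on the 8 libraries together with a term for each of the 4 groups, leaving 4 residual degrees of freedom. LPS was compared in each genotype, genotype with and without LPS, and the difference of the responses was tested. Standard errors are the absolute log2 fold change over the root of F. Calls need a Benjamini-Hochberg adjusted p under 0.05 over all genes tested. The pipeline was tested on simulated data.

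The genes named are the 5 members, every gp130-family ligand and receptor, pathway genes called in a genotype comparison or in the difference of responses, the 3 largest called LPS changes of each list in wild-type, *Zc3h12a*, *Tut7*, the 3 genes most like each member and the marker lists. Single values of 2 listed genes are not reported here. The members and lists were chosen with earlier results of these data known. Alternatives used limma 3.58.1 on log2(RPKM + 1) and log2(RPKM + 0.1), DESeq2 1.42.0, other scalings and filters, the replicate block and leaving out libraries. A length spline with 5 degrees of freedom, the crossed block and leaving out both untreated libraries numbered 1 were added after seeing the data. Plots used matplotlib 3.10.9 under Python 3.11.15.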

Additional observations from a re-analysis of the deposited data

How the results depend on the processing

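With 2 libraries a group, precision is limited by the replicates for the receptor genes and by depth for *Il6* and *Lif* at baseline. Leaving out 1 library leaves the other of its group assumed to vary like the remaining groups. The numbers of called members ranged over such fits from 4 to 5 for LPS in wild-type, 3 to 4 for LPS in *Tut7*-/-, 0 to 1 between untreated genotypes (1 without KO-Ctrl library 2), 0 to 2 between genotypes with LPS (0 without KO-LPS library 2, 2 without KO-Ctrl library 1) and 0 to 2 for the difference of responses (2 without KO-Ctrl library 2).

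Between genotypes with LPS, 2 members were called in the fit of only the 4 libraries, without both untreated libraries numbered 1 and with the length correction, the additional one being *Osm*, and 0 with limma on log2(RPKM + 0.1), where *Il6* stood at -1.95 (adjusted p = 0.088). Over single libraries left out *Il6* ranged from -2.10 to -1.75. Without both untreated libraries numbered 1, 1 member was called between untreated genotypes, and limma on log2(RPKM + 1) called 1 difference of responses. The cause of these changes was not tested.

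Directions turned as follows. *Osm* with LPS in wild-type was at -0.085 with library totals as scaling, -0.064 with limma on log2(RPKM + 1) and -0.075 with log2(RPKM + 0.1). *Osm* between untreated genotypes was at 0.027 with DESeq2 size factors and the DESeq2 Wald test and 0.025 without both untreated libraries numbered 1, and over single libraries left out it ranged from -0.16 to 0.099. *Il6ra* between untreated genotypes ranged from -0.58 to 0.52 over single libraries left out and was at 0.13 with the length correction. The difference of responses was -1.80 and -1.09 for *Il6* and -0.23 and -0.38 for *Lif* with limma at the larger and smaller pseudocount, and over single libraries left out it ranged from -1.87 to 1.64 for *Il6* and from -0.38 to 2.69 for *Lif*. *Il6* between untreated genotypes ranged from -3.51 to 0, the last without WT-Ctrl library 2, when no untreated count remained.

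Whether replicate numbers pair the samples is not stated in the labels. The correlation of same-numbered deviations was 0.31 between the untreated groups and -0.20 to 0.04 elsewhere, which cannot decide it. With the replicate block 5, 4, 0, 1 and 0 members were called, as without it, *Il6* between genotypes with LPS was at -1.90, and all-gene calls went from 6598, 7822, 4259, 161 and 517 to 6633, 7850, 4403, 177 and 585. With the KO-LPS numbers crossed, 4 members and 7991 genes were called for LPS in *Tut7*-/-.

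Over all genes, 161 calls between genotypes with LPS became 80 (library totals) to 1671 (without both untreated libraries numbered 1) and 14 to 761 with 1 library left out, and 517 differences of responses became 241 (DESeq2 size factors) to 1451 and 1 to 3483. The 4259 untreated genotype calls became 2591 (only the 4 libraries) to 5291 (length correction) and 1739 to 6350. For LPS no alternative moved the count beyond 1.5 times.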
